A study of Bos taurus with 12 samples.

Results

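Of 45202 regions in the 3 deposited peak tables, 8682 are the rows of the table that compares N6-methyladenosine (m6A) peaks of bovine MII oocytes with those of GV oocytes, and all 8682 are described here whether or not the authors counted them as changed. They lie in 5010 genes, and each row was joined by its Ensembl gene identifier to the gene's expression in both stages. The authors' deposited table gives 1 log2 change per peak, MII against GV, so a positive value is higher in MII. It has no value per library, and a peak's change therefore has no replicate spread here. The table lists only peaks with a p-value of at most 0.0490, so every share below is a share of listed peaks, and peaks that did not differ are not in the denominator.

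m6A is a methyl mark on adenosines of messenger RNA, written by a methyltransferase complex around METTL3 and METTL14 and removed by FTO and ALKBH5. Reader proteins of the YTH family bind it and direct the RNA to splicing, export, translation or decay, and in most tissues the mark is densest near stop codons and in long internal exons. An oocyte stops transcribing before it matures, so from the germinal vesicle (GV) stage to metaphase of the second meiotic division (MII) its messages are stored, given new poly(A) tails, translated or degraded without being replaced.

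Both groups were bovine oocytes cultured in vitro, with no genotype, strain, treatment or animal age given in the labels. Each stage had 3 input libraries and 3 libraries immunoprecipitated with an m6A antibody, 12 in all, of RNA selected on oligo(dT) beads. A change of poly(A) tail length could therefore enter input and immunoprecipitate alike. Whether the replicates were separate oocyte pools or animals is not stated, so p-values of the input reflect variation among the libraries alone, possibly only technical.

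Input levels are FPKM, a read density corrected for transcript length and library size, summing to between 548878 and 595067 per library. They come from pooled cells, in which fewer cells of a type and less RNA per cell cannot be told apart. The 12 oocyte markers examined were above 0 in all 6 libraries and summed to between 2217 and 2247 FPKM in GV and between 2767 and 2905 FPKM in MII. OOSP2, at 504 to 517 FPKM in GV and 236 to 266 FPKM in MII, and DAZL were lower in every MII library. KIT overlapped between the stages, and the rest of these markers were higher in every MII library than in every GV library. Markers of cumulus and granulosa cells, the somatic cells around the oocyte, summed to between 266.5 and 279.2 FPKM in GV and between 262.6 and 271.1 FPKM in MII over the 23 listed. STAR alone held 143 to 169 FPKM of that sum, and the FSH receptor gene FSHR was at or near 0 in every library. Without STAR the sum was lower in MII, at 98.1 to 102.8 FPKM, than in GV, at 119.5 to 127.3 FPKM. HAS2, GJA1, PTGS2, VIM, COL4A1 and VCAN were lower in every MII library than in every GV library. STAR, SERPINE2, CLU, GREM1 and SLC38A3 were higher in every MII library. The list thus moved in both directions, and so did markers at lower levels. The part of other cells in the peak values was not tested.

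More listed peaks were higher in MII than lower. A peak is called changed here when its adjusted p in the authors' deposited table is under 0.05, which 8157 of 8682 peaks met (94.0% of the rows), 5468 higher (63.0%) and 2689 lower (31.0%). Under the size rule of the authors' deposited table, p under 0.05 with a log2 change of at least 1 in size, 6323 peaks were called (72.8%), 4422 higher (50.9%) and 1901 lower (21.9%). The largest adjusted p among called peaks was 0.0490 and the smallest among the others 0.0501, both in the authors' deposited table, and the smallest change listed was 0.03 on the log2 scale. The median log2 change in the authors' deposited table was 1.03, with quartiles of -0.83 and 1.95 and a range of -7.03 to 7.16.

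This majority depended on where the change was centred. Called peaks were higher in 67.0% of cases as deposited, but in 51.2% (4173 higher, 3962 lower) after the median over all rows was subtracted. No source used here states how the authors scaled the stages against each other. Directions below are those of the authors' deposited table, and where centring turned the majority of a main class or a gene list, both counts are given.

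Peaks higher in MII were mostly absent from the list of peaks called in GV, while peaks lower in MII were mostly in both lists. Of the 5468 called higher, 3564 (65.2%, exact 95% interval 63.9% to 66.4%) overlapped, with 1 bp or more in the same gene and strand, a peak of the MII list alone, and 1898 (34.7%) overlapped both lists. Of the 2689 called lower, 2070 (77.0%, 75.3% to 78.6%) overlapped both lists and 616 (22.9%) the GV list alone. The lists differ in length, 14222 peaks in GV and 22298 in MII, and the part of this in the overlaps was not tested. These intervals, and all others on shares below, cover counting error only, since peaks are not replicates. In the lower peaks present in both lists, the median enrichment of immunoprecipitate over input was 3.70 in GV and 1.67 in MII on the log2 scale, as the authors' deposited lists give it. In the higher peaks present in both, it was 1.59 in GV and 2.12 in MII.

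The sign of the deposited change did not always match the difference between the 2 stage lists. Over the 4255 rows that overlapped both lists, 3581 (84.2%) had the sign of the MII minus GV enrichment. The mitochondrial gene ND1, a subunit of respiratory complex I, was one of the exceptions, with enrichments of 3.01 in GV and 2.68 in MII and a log2 change of 1.45 in the authors' deposited table.

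Direction differed with the place of a peak in its transcript. Peaks the authors' deposited table classed as 5′ UTR were higher in MII in 364 of 420 called (86.7%, 83.0% to 89.8%), with a median log2 change of 1.66, and start codon peaks in 930 of 1138 (81.7%, 79.4% to 83.9%), with a median of 1.32. Exonic peaks, the most common class, were higher in 3467 of 5205 (66.6%). Stop codon peaks were the one class of these 5 with more called lower, 370, than higher, 296 (44.4% higher, 40.6% to 48.3%), with a median of -0.36. Peaks in 3′ UTRs were higher in 384 of 688 (55.8%), a majority that turned to 331 against 355 after centring. The other 4 classes kept the direction of their majority under centring, the exonic class narrowly, at 2642 against 2550. The remaining 37 called peaks in exons of noncoding RNA were higher in 25 cases, and 3 were intronic.

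Read the other way, 13.8% of peaks called lower (12.5% to 15.1%) were stop codon peaks, against 5.41% of peaks called higher (4.83% to 6.05%). The 5′ UTR and start codon classes had the opposite pattern. The 5′ UTR class held 6.66% of higher and 2.08% of lower peaks, and the start codon class 17.0% of higher and 7.74% of lower peaks. Exonic peaks took nearly the same share of each, 63.4% and 64.6%.

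Strand, peak length and input level moved with direction too, and their part in the class differences was not tested. Called peaks were higher in MII in 74.7% of cases on the plus strand (73.4% to 76.0%) and in 58.1% on the minus strand (56.5% to 59.7%), the latter majority being turned by centring from 2186 higher and 1578 lower to 1580 and 2173. The gap was absent for 5′ UTR peaks, at 85.6% (plus strand) and 88.2% (minus strand), and for start codon peaks, at 81.1% and 82.5%. It was 75.9% and 56.3% for exonic peaks, 54.6% and 29.8% for stop codon peaks, and 68.3% and 42.7% for 3′ UTR peaks. The minus strand 3′ UTR class thus had more lower than higher calls, and the plus strand stop codon class more higher than lower ones until centring turned it to 117 against 277. Centring also turned the minus strand exonic class, from 1392 higher and 1079 lower to 974 and 1489.

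Spans in the table include introns, and their median was 1826 bp. Among the 3630 peaks of at most 1000 bp, the 5′ UTR and start codon classes again had the largest shares and the stop codon class the smallest, with 85.6% of called 5′ UTR peaks, 77.4% of start codon, 56.0% of 3′ UTR, 52.7% of exonic and 28.0% of stop codon peaks higher in MII. Centring turned 2 of these majorities, the exonic one to 846 higher and 1064 lower and that of 3′ UTRs to 316 and 336. As deposited, peaks in more abundant messages were more often higher. From the lowest to the highest quintile of listed peaks by mean input level, whose median levels were 8.27, 17.8, 29.1, 46.8 and 100.6 FPKM, the share higher was 49.6%, 62.2%, 67.9%, 73.6% and 79.9%. After centring that rise was largely absent, with 685, 835, 878, 918 and 843 peaks higher and 836, 772, 754, 749 and 840 lower from the lowest quintile to the highest. Within each quintile the 5′ UTR and start codon classes had a larger share higher than the stop codon class, whose share went from 22.9% in the lowest quintile to 63.2% in the highest (129 higher and 75 lower, turned to 55 and 149 by centring).

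**Figure D1:**
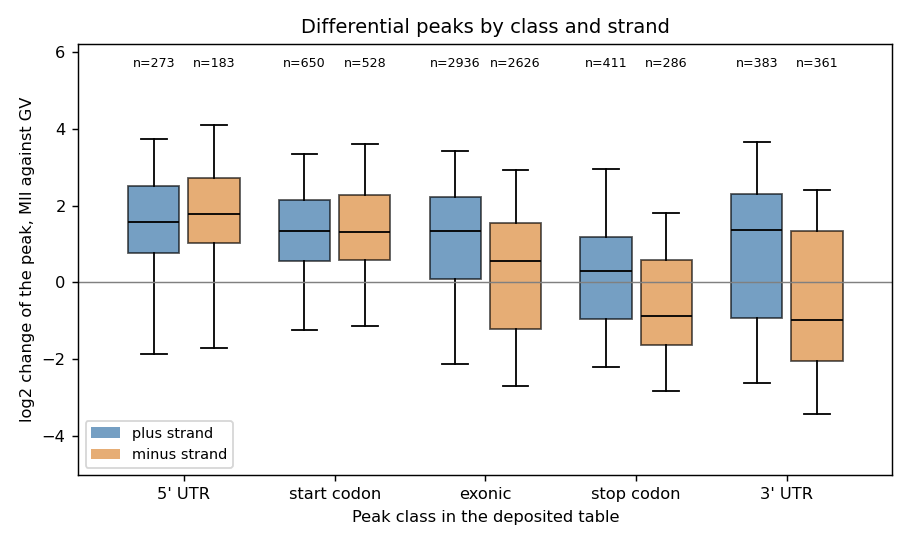
Log2 change of listed peaks (MII against GV, vertical axis) by deposited peak class (horizontal axis) and strand. Boxes show the quartiles with the median as a line, whiskers the 5th and 95th percentiles, and the number of listed peaks stands above each box; medians of 5′ UTR and start codon peaks lie above 0 on both strands, and those of stop codon and 3′ UTR peaks on the minus strand lie below 0.

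The same order appeared when peaks were placed by their centre along the annotated gene, introns included. From the first to the last quintile of gene length, 80.9%, 75.8%, 70.7%, 67.7% and 53.2% of called peaks were higher in MII. On the plus strand the first quintile had 84.3% and the last 64.7%. On the minus strand they had 77.3% and 40.6%, so the majority was higher at one end and lower at the other. Among peaks of at most 1000 bp the shares were 74.2% in the first quintile and 46.5% in the last. The last quintile held 2687 of the 8157 called peaks, 1429 higher and 1258 lower, which centring turned to 1061 and 1618. On the minus strand centring also turned the 3 middle quintiles.

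**Figure D2:**
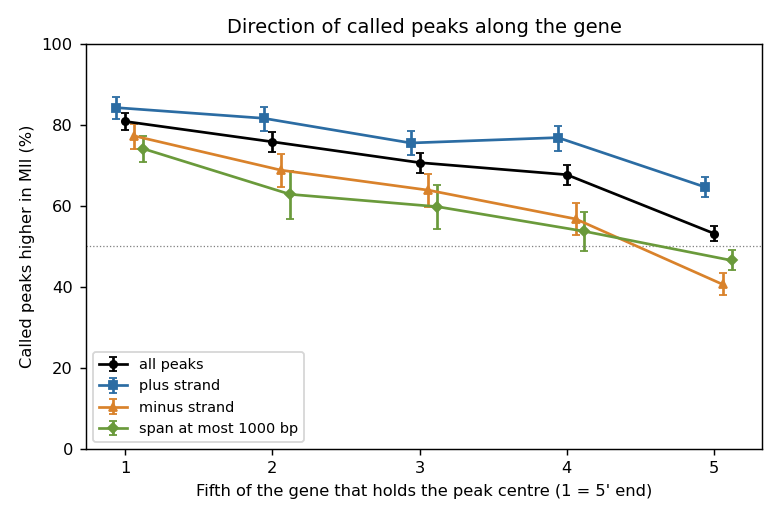
Share of called peaks that were higher in MII (percent, vertical axis) by the quintile of gene length that holds the peak centre (horizontal axis, 5′ to 3′), for all peaks, each strand and peaks spanning at most 1000 bp. Bars are exact 95% binomial intervals; all 4 lines are lower in the last quintile than in the first, and the minus strand line ends at 40.6%.

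The highest and lowest peaks named here were in messages of 56.5 FPKM or less in every library, and 18 of these 19 overlapped peaks of 1 stage list only. The lowest was an exonic peak of ZBTB21, a zinc finger transcription repressor, on the minus strand of chromosome 1 (142239981 to 142240101), with a log2 change of -7.03 in the authors' deposited table (adjusted p 1e-36). It had an enrichment of 5.76 in GV and no overlapping MII peak. Genome coordinates here and below count from 1, and no source used here names the build. The 2 other listed peaks of ZBTB21, at -4.22 and -2.05 in the authors' deposited table, were also lower. Input of ZBTB21 was 7.32, 7.40 and 9.56 FPKM in the GV libraries and 5.36, 4.81 and 3.90 FPKM in the MII libraries, without overlap between stages (log2 change on the log2(FPKM + 1) scale -0.68 ± 0.14 SE, limma adjusted p = 0.0045).

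The next lowest peaks were in KBTBD4, a Kelch protein of an ubiquitin ligase, at -6.41, and in FASTKD2, a mitochondrial RNA-binding protein, at -6.09 in the authors' deposited table. Their messages went the other way. Input of KBTBD4 was 1.41, 2.06 and 1.85 FPKM in GV and 4.77, 4.80 and 5.36 FPKM in MII (log2 change 1.11 ± 0.13 SE, limma adjusted p = 0.00026). Input of FASTKD2 was 4.47, 4.1 and 2.75 FPKM in GV and 5.86, 6.31 and 7.75 FPKM in MII (0.69 ± 0.17 SE, limma adjusted p = 0.0095). In both genes every MII library was above every GV library. Other peaks at this end were those of the cell cycle gene CACUL1 (-5.84), the endosomal gene ZFYVE26 (-5.61), the transcription repressor gene ZEB1 (-5.53), the topoisomerase gene TOP3A (-5.47), MAPKAPK5 (-5.45) and KLHL9 (-5.33) in the authors' deposited table, and of the 9 lowest peaks named, only that of KLHL9 overlapped a peak of the MII list.

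The highest peak spanned the stop codon of PCNP, a nuclear protein gene on the plus strand of chromosome 1 (46010077 to 46015163), with a log2 change of 7.16 in the authors' deposited table (adjusted p 7.9e-21). Its message fell, from 22.4, 25.0 and 24.8 FPKM in GV to 8.93, 11.2 and 8.10 FPKM in MII, with no overlap (log2 change -1.28 ± 0.11 SE, limma adjusted p = 6.9e-05). ANKRD13B, of an ankyrin repeat family that binds ubiquitin, had an exonic peak at 6.71 in the authors' deposited table on an input of 9.47, 8.94 and 7.97 FPKM in GV and 7.90, 9.65 and 9.20 FPKM in MII, which overlapped.

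SIVA1, an apoptosis gene, came next with 6.64, followed by SPIRE2, an actin nucleator that helps position the oocyte spindle in the mouse, with 6.50, both from the authors' deposited table. Input of SPIRE2 was 17.4, 17.0 and 16.0 FPKM in GV and 17.4, 20.01 and 18.5 FPKM in MII, and did not pass the test (limma adjusted p = 0.13). TTC21B (6.23), the replication helicase gene MCM7 (6.12), the respiratory complex II gene SDHB (6.05), PIP4K2A (6.01), DCAF7 (5.96) and the RNA ligase gene RTCB (5.92) completed the 10 highest in the authors' deposited table. None of these 10 overlapped a peak of the GV list.

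Several peaks of 1 gene could move apart, though most genes with at least 2 called peaks had them all in 1 direction. Of the 5010 genes, 2828 had 1 listed peak, 1321 had 2 and 861 had 3 or more. Of the 2020 genes with at least 2 called peaks, 980 had all of them higher, 314 all lower and 726 at least 1 in each direction. After centring, 880 genes had called peaks in both directions. Over all called peaks 67.0% were higher as deposited, and how many genes would hold both directions from that share alone was not tested. In all 726 a higher and a lower peak were found that did not overlap. A gene's peaks share its input level, so a change of the whole gene's abundance is common to both peaks of such a pair, although exons of different transcripts of the gene need not share it.

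When peaks of a gene parted, the higher one more often lay nearer the 5′ end. Taking from each gene the pair of non-overlapping called peaks with the largest difference, the higher peak was 5′ of the lower one in 499 of 726 genes (68.7%, 65.2% to 72.1%). The median position of the higher peak was 53.1% of the gene's length from its 5′ end and that of the lower peak 85.5%. The share was 65.7% on the plus strand and 71.5% on the minus strand. It was 72.3% (277 of 383) where both peaks changed by at least 1 on the log2 scale, and 59.1% (91 of 154, 50.9% to 66.9%) where both spanned at most 1000 bp, 52.9% of 68 genes on plus strand and 64.0% of 86 on the other.

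Peak class differed within these pairs as it did over all peaks. A stop codon peak was the lower member in 129 genes and the higher one in 13. Start codon peaks were the higher member in 111 and the lower in 41, and 5′ UTR peaks the higher in 66 and the lower in 20. Exonic peaks, 453 and 436, and 3′ UTR peaks, 83 and 100, were found on both sides. In 303 genes both members were exonic. The median gap between the members was 8743 bp, and 144 pairs lay within 1000 bp of each other.

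The 11 genes described next, among those whose peaks differed most, show the range of arrangements. In 10 of them the higher peak of the pair was nearer the 5′ end, and 7 were on the minus strand. The input of 5 of the 11 fell, that of 2 rose and that of 4 did not pass the test.

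BRWD1 (ENSBTAG00000013602), a chromatin reader with bromodomains and WD repeats on the minus strand of chromosome 1, had 6 listed peaks, and they changed sign along the gene. Those at 34.6%, 47.0% and 59.6% of its length were at 1.81, 4.1 and 1.19 in the authors' deposited table, the last of them not called. Those at 87.8%, 92.7% and 97.6% were at -2.41, -1.22 and -4.35 in the authors' deposited table. The 3 peaks of the 5′ side overlapped none of the GV list. Input of BRWD1 was 24.0, 24.3 and 24.9 FPKM in GV and 16.5, 15.9 and 16.8 FPKM in MII, and the stages did not overlap (log2 change -0.54 ± 0.06 SE, limma adjusted p = 0.00013).

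GON4L, a nuclear protein with a role in transcription, showed the same order on the plus strand of chromosome 3. Its 5′ UTR peak was at 2.48 and the next 2 exonic peaks at 0.77 and 1.20, while the 3 peaks beyond 89.9% of the gene were at -0.79, -0.60 and -4.32, all in the authors' deposited table. The 5′ UTR peak overlapped no peak of either stage list. Input was 33.2, 30.3 and 32.0 FPKM in GV and 27.6, 27.2 and 27.3 FPKM in MII, every MII library being below every GV library (-0.21 ± 0.05 SE, limma adjusted p = 0.011).

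NAPEPLD, which makes N-acylethanolamines and was the most abundant of the 11, had 1 peak at each end. The 5′ UTR peak (chromosome 4, 44517201 to 44517470) was at 5.61 and had no GV peak, and the exonic peak at 91.8% of the gene (44433660 to 44436800) was at -2.53 and had no MII peak, as the authors' deposited tables give them. Input was 173, 185 and 174 FPKM in GV and 116, 112 and 109 FPKM in MII, which did not overlap (-0.66 ± 0.04 SE, limma adjusted p = 2.2e-05).

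PIP4K2A, a lipid kinase, had the same arrangement on a message that rose. Its 5′ UTR peak (chromosome 13, 23808182 to 23808361) was at 6.01 and its 3′ UTR peak (23623212 to 23623540) at -1.42 in the authors' deposited table. Input was 6.38, 5.52 and 5.07 FPKM in GV and 10.1, 11.0 and 11.2 FPKM in MII (0.82 ± 0.10 SE, limma adjusted p = 0.00034). The lowest MII library was above the highest GV library.

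RANBP2, the large nucleoporin on the cytoplasmic face of the pore, had 1 peak at its 5′ end at 4.85 and 4 more between 70.8% and 89.1% of the gene at -1.33, -0.37, -2.88 and -0.29 in the authors' deposited table. Its input was 52.1, 51.0 and 52.6 FPKM in GV and 40.3, 39.6 and 39.5 FPKM in MII, again without overlap (-0.38 ± 0.04 SE, limma adjusted p = 0.0002). IBSP, named for integrin-binding sialoprotein, a protein known from bone, had a start codon peak at 2.39 and an exonic peak at -4.57 in the authors' deposited table. IBSP input was 10.6, 8.87 and 8.56 FPKM in GV and 9.13, 9.33 and 9.17 FPKM in MII, and overlapped.

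DCAF7, an adaptor of CUL4 ubiquitin ligases on chromosome 19, had 6 called peaks within the last quintile of its length, and their changes varied over a few kilobases. From 5′ to 3′ they were at 4.09, 5.96, 4.36, 3.00, 1.63 and -0.96 in the authors' deposited table, the last 5 of them in the 3′ UTR. Its input was 43.0, 43.2 and 44.4 FPKM in GV and 42.6, 42.9 and 42.5 FPKM in MII, a difference that did not pass the test (limma adjusted p = 0.59).

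The closest pair among the 11 was in the 3′ UTR of PTPN5, a tyrosine phosphatase on chromosome 29. A peak at 26049811 to 26049990 was at 3.64 and one 88 bp further on, at 26050079 to 26050258, at -3.10 in the authors' deposited table. Both overlapped the same MII enrichment of 1.37, and only the second overlapped a GV peak, with an enrichment of 3.94. Input of PTPN5 was 17.3, 16.2 and 14.6 FPKM in GV and 20.5, 22.0 and 21.3 FPKM in MII, which did not overlap (0.39 ± 0.08 SE, limma adjusted p = 0.0031).

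KIF13A, a kinesin motor on the plus strand of chromosome 23, had the reverse order. Its exonic peak at 69.2% of the gene was at -3.36, the next at 1.98 and its 3′ UTR peak at 4.75, all in the authors' deposited table. Input was 6.41, 7.27 and 7.08 FPKM in GV and 7.76, 7.36 and 7.51 FPKM in MII, apart but too little to pass the test (limma adjusted p = 0.31).

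The chromatin remodeller gene CHD6 and the kinase gene MAPKAPK5 had their lowest peak near the 3′ end. It was at -5.11 and -5.45 in that order, and the highest called peak of each was at 1.66 and 1.10, in the authors' deposited table. Input of CHD6 was 12.8, 13.4 and 13.4 FPKM in GV and 10.2, 10.03 and 10.3 FPKM in MII, without overlap (-0.34 ± 0.07 SE, limma adjusted p = 0.0031). Input of MAPKAPK5 was 8.13, 7.48 and 8.21 FPKM in GV and 7.06, 6.98 and 6.74 FPKM in MII, apart in every library but past the threshold only after rescaling (limma adjusted p = 0.11, from 0.022 to 0.24 over the alternatives).

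**Figure D3:**
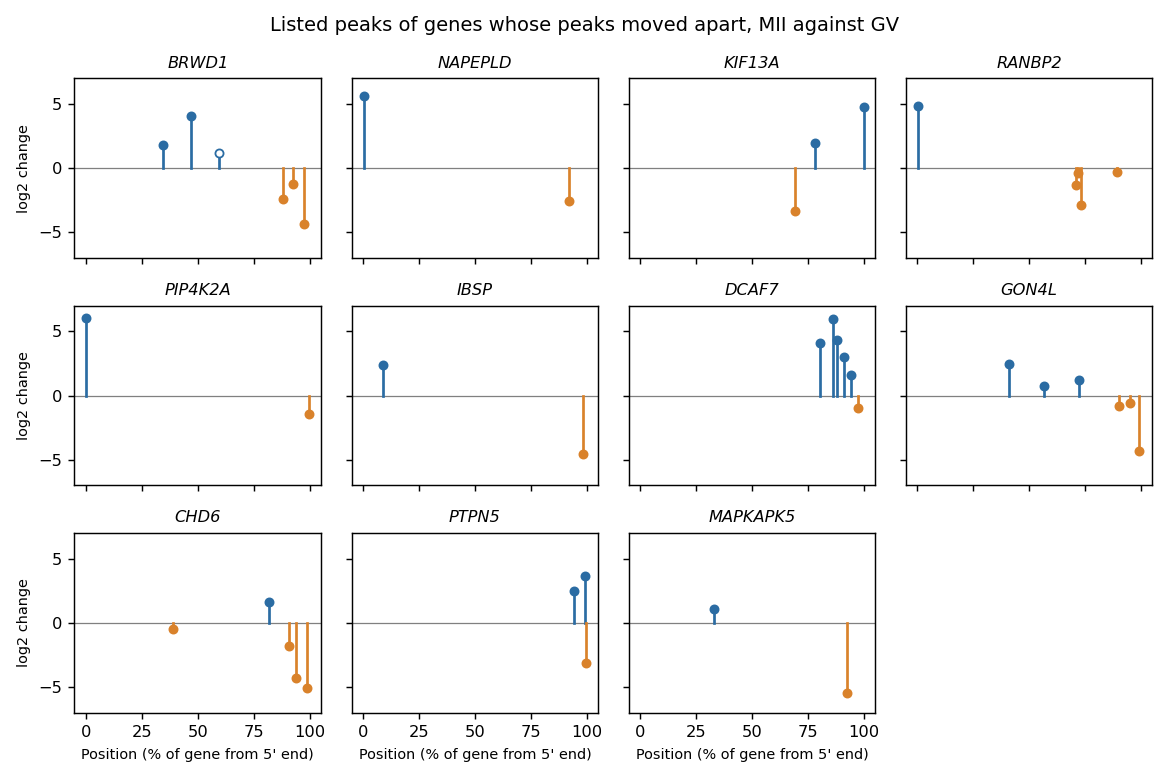
Log2 change (MII against GV, vertical axis) of every listed peak of 11 genes with a large difference between 2 called peaks, by position of the peak centre (percent of the gene from its 5′ end, horizontal axis). Blue is higher and orange lower in MII, and the open circle in BRWD1 is the peak that was not called; in 10 of 11 genes the highest peak lies 5′ of the lowest.

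**Figure D4:**
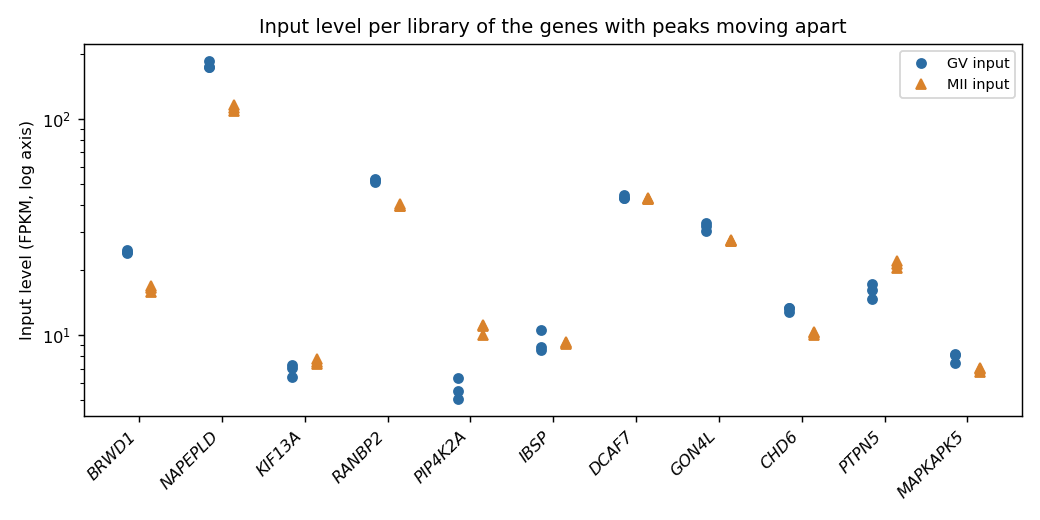
Input level (FPKM, logarithmic vertical axis) of the same 11 genes in each of the 3 GV and 3 MII input libraries, 1 point per library. The stages overlap for IBSP, and the levels of BRWD1, NAPEPLD, RANBP2, GON4L and CHD6 are lower in all 3 MII libraries. Those of MAPKAPK5 and DCAF7 are too, by less and without passing the test.

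Long genes with many peaks differed in how far their peaks moved together. KMT2C, a histone H3 lysine 4 methyltransferase, had the most, 13 called peaks, of which 8 were higher and 5 lower in alternating runs, from -1.27 to 2.97 in the authors' deposited table. All 9 called peaks of SPTAN1, the alpha chain of non-erythroid spectrin, were higher, from 0.95 to 2.31. All 8 of MKI67, the surface protein of mitotic chromosomes, were lower, from -2.37 to -0.52, both ranges being from the authors' deposited table.

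Input of all 3 fell, while their peaks went different ways. KMT2C was at 61.3, 65.1 and 64.8 FPKM in GV and 51.6, 50.9 and 49.2 FPKM in MII (limma adjusted p = 0.00058). SPTAN1 was at 189, 191 and 189 FPKM in GV and 158, 162 and 155 FPKM in MII (limma adjusted p = 0.0005). MKI67 was at 59.4, 59.1 and 59.2 FPKM in GV and 45.6, 44.3 and 44.7 FPKM in MII (limma adjusted p = 0.00012).

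Among the other genes with at least 8 called peaks, the cadherin FAT1 had 8 lower and 1 higher, NEB, which encodes nebulin, 8 higher and 1 lower, and the ubiquitin ligase TRIP12 7 higher and 1 lower. The nuclear speckle protein SON had 6 lower peaks between 2 higher ones at 0.81 and 2.32 in the authors' deposited table. The acetyltransferase EP300 had 5 higher and 3 lower, the linker protein MACF1 5 and 4, SYNE2 7 and 2, and the centrosomal ALMS1 4 and 5.

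Gene groups were read against the 63.0% of listed peaks called higher and the 31.0% called lower. Shares of called peaks were read against the 67.0% of all called peaks that were higher. The group furthest from these shares was the zinc finger transcription factor families (symbols beginning ZNF, ZBTB, ZSCAN, ZKSCAN or ZFP and a number), with 223 listed peaks in 130 genes. Of its 205 called peaks 57 were higher and 148 lower, 72.2% lower (65.5% to 78.2%), and the median over listed peaks was -1.16 against 1.03 over all. Of the 124 genes with a called peak, 80 had all called peaks lower, 25 all higher and 19 both. These are large families of related sequences, and no source used here states how reads shared by paralogs were counted.

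The zinc finger genes were less abundant than the rest, with a median of 15.2 FPKM over their called peaks against 30.5 FPKM, and their peaks were shorter, so the share was also taken within strata. In the lowest quintile of input level 78.9% of their 90 called peaks were lower, against 48.6% of 1433 in other genes. From the next quintile to the highest the shares were 69.2%, 67.7%, 61.5% and 66.7% against 36.8%, 31.4%, 25.8% and 19.9%, the highest quintile holding 6 zinc finger peaks. On the plus strand they were 72.6% against 24.3%, and on the minus strand 71.9% against 41.0%. Among exonic peaks of at most 1000 bp they were 83.5% of 85 against 45.7% of 1820.

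After ZBTB21, the lowest zinc finger peak was near the 3′ end of ZNF382 (chromosome 18, 46958476 to 46958745), at -5.01 in the authors' deposited table, on an input of 4.34, 5.6 and 5.47 FPKM in GV and 6.74, 7.67 and 7.21 FPKM in MII. The highest, ZNF454 at 5.49 and ZNF608 at 3.81 in the authors' deposited table, were in messages of 2.35 FPKM or less in every library. Input was higher in MII for 34 of the 130 zinc finger genes with peaks and lower for 45, and over all 239 tested genes of these families it was higher for 72 and lower for 73.

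The signalling list (MAPK, PI3K, TGF-beta and WNT) and the chromatin list were close to an even split as deposited. Of 82 called signalling peaks 43 were higher and 39 lower (median over listed peaks 0.16), which centring turned to 30 and 52. The lowest were stop codon peaks of SMAD1, a BMP effector, at -3.24 and of FOXO3, a transcription factor that holds follicles dormant in the mouse, at -3.00, and the highest a peak of the kinase gene GSK3A at 3.44, in the authors' deposited table. Of 175 called chromatin peaks 98 were higher and 77 lower (68 and 106 after centring), with 27 of 68 genes having both. The histone methyltransferase gene NSD1 had the lowest, -3.82, and SMARCB1, a core subunit of SWI/SNF remodellers, the highest, 4.37, in the authors' deposited table.

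Solute carriers, with 34 higher and 24 lower, and DNA damage genes, with 55 and 43, were also below the share over all peaks, and centring turned both, to 28 and 30 and to 47 and 50. The DNA ligase gene LIG4 was lowest among the latter at -2.86 and the excision repair gene ERCC1 highest at 5.11 in the authors' deposited table. The genes of the m6A pathway itself had 21 peaks higher and 14 lower (16 and 19 after centring). The highest was on IGF2BP2, a reader that stabilises its targets, at 3.00, and the lowest on the cytoplasmic reader gene YTHDF1 at -2.24 in the authors' deposited table. A peak of RBM15, an adaptor of the methyltransferase, was at -2.00 in the authors' deposited table.

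Peaks in messages of the translation and energy machinery were mostly higher. Cytosolic ribosomal protein genes had 24 of 26 called peaks higher and 2 lower, nuclear genes of the respiratory chain 33 of 37, and translation factors 49 of 59, with medians over listed peaks of 1.69, 2.01 and 1.42. All 3 kept more higher than lower calls after centring (20 against 6, 30 against 7 and 36 against 23). The 2 lower ribosomal peaks were in RPL7A, at -0.44, and in RPL7L1, a relative of RPL7 that the symbol pattern admitted, at -1.58 in the authors' deposited table.

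Input of the first 2 of these groups was mostly higher in MII, and the third was mixed. It was higher for 20 of the 23 ribosomal genes with peaks and lower for 1, higher for 27 of the 33 respiratory genes and lower for 1, and higher for 9 of the 40 translation factor genes and lower for 13. Over all 4985 tested genes of the table, 29.8% were higher and 36.3% lower. The ribosomal protein gene RPL5 had a start codon peak at 4.06 in the authors' deposited table. Input of RPL5 was 18.3, 19.4 and 17.8 FPKM in GV and 39.6, 38.2 and 30.7 FPKM in MII, which did not overlap (0.92 ± 0.10 SE, limma adjusted p = 0.00015). EIF4A3, the helicase of the exon junction complex, had a peak at 4.18 in the authors' deposited table on a message that fell, from 56.7, 58.5 and 57.4 FPKM in GV to 47.2, 47.9 and 45.3 FPKM in MII (limma adjusted p = 0.00083).

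Peaks of transport and trafficking genes were mostly higher too. RAB, VPS and SNX genes had 69 higher and 12 lower, nuclear pore and import genes 51 and 10, kinesin, dynein and tubulin genes 70 and 21, and redox and stress genes 42 and 10. These majorities remained after centring, at 56 against 25, 40 against 20, 52 against 39 and 29 against 23. The superoxide dismutase gene SOD1 had a start codon peak at 4.80 and GPX4, which reduces lipid peroxides, an exonic peak at 4.34 in the authors' deposited table. Ubiquitin and proteasome genes, the largest of these lists, had 165 of 233 called peaks higher and 68 lower (131 and 102 after centring), close to the share over all peaks. The proteasome subunit gene PSMA3 was at 4.49 in the authors' deposited table.

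Genes of meiosis and the cell cycle had 55 called peaks higher and 15 lower (45 and 25 after centring). BUB3, a spindle checkpoint gene, had an exonic peak at 4.01 in the authors' deposited table, and its input rose from 62.4, 62.3 and 59.6 FPKM to 100.1, 99.2 and 93.6 FPKM, without overlap (0.66 ± 0.04 SE, limma adjusted p = 2.2e-05). RAD21, a cohesin subunit that holds sister chromatids together, had a 3′ UTR peak at 3.52 in the authors' deposited table while its message fell, from 145, 152 and 145 FPKM to 96.5, 93.8 and 93.4 FPKM (-0.63 ± 0.04 SE, limma adjusted p = 1.3e-05). MOS, the kinase that maintains the MII arrest, had the lowest peak of the list, at -1.76 in the authors' deposited table, on an input of 355, 345 and 336 FPKM in GV and 315, 353 and 338 FPKM in MII, which overlapped.

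Oocyte and maternal effect genes had 38 called peaks higher and 12 lower, turned to 22 and 27 by centring. LHX8, an oocyte transcription factor, had a peak at 3.88 in the authors' deposited table, and its input rose, from 38.9, 38.9 and 37.6 FPKM to 78.6, 81.8 and 75.7 FPKM (1.01 ± 0.05 SE, limma adjusted p = 4.1e-06). NLRP5, of the subcortical maternal complex, had peaks in both directions, with one at -1.16 (chromosome 18, 63482666 to 63482756) and another at 2.01 (63483564 to 63486755) in the authors' deposited table. Input of NLRP5 was 244, 234 and 238 FPKM in GV and 257, 272 and 253 FPKM in MII. GDF9, the growth factor by which the oocyte acts on its cumulus cells, had a stop codon peak at -1.05 in the authors' deposited table on a message that rose from 158, 163 and 170 FPKM to 254, 255 and 254 FPKM (0.63 ± 0.04 SE, limma adjusted p = 1.2e-05).

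mRNA decay factors and regulators of poly(A) tails had 87 of 118 called peaks higher and 31 lower (72 and 45 after centring), and splicing factors and hnRNPs 76 of 100 and 24 (44 and 55 after centring). The deadenylase gene PARN was at 4.19 and CPEB1, which binds the cytoplasmic polyadenylation element of stored oocyte messages, at 4.16 in the authors' deposited table. Input of CPEB1 was 68.4, 69.1 and 69.9 FPKM in GV and 84.3, 83.3 and 82.1 FPKM in MII, without overlap (0.26 ± 0.04 SE, limma adjusted p = 0.00062). PABPN1, the nuclear poly(A)-binding protein gene, had the lowest peak, in its 3′ UTR, at -3.49 in the authors' deposited table.

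Markers of somatic cells had few listed peaks. Cumulus and granulosa genes had 4 called higher and 4 lower, among them HAS2, the hyaluronan synthase of cumulus expansion, with a stop codon peak at -1.80 and PTGS2, its prostaglandin synthase, with a 3′ UTR peak at 3.91 in the authors' deposited table. HAS2 input was 35.4, 34.9 and 32.7 FPKM in GV and 21.5, 22.3 and 20.7 FPKM in MII. The theca, blood and immune markers had 1, a higher peak of VWF at 3.04 in the authors' deposited table, and the 12 oocyte markers 7 higher and 7 lower (4 and 9 after centring).

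**Figure D5:**
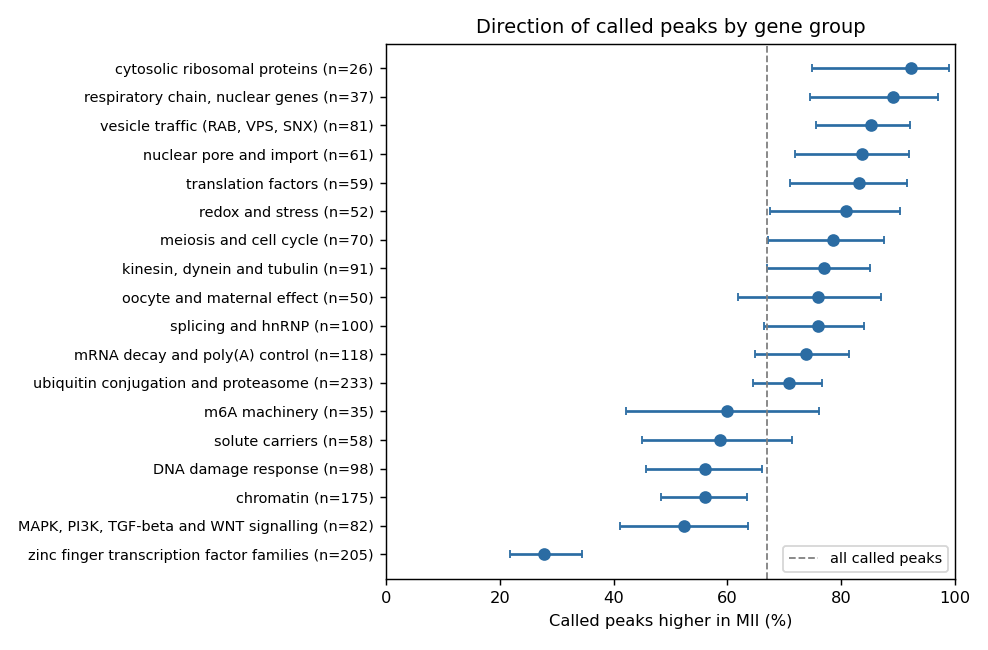
Share of called peaks higher in MII (percent, horizontal axis) for each gene group with at least 20 called peaks (number in brackets, vertical axis). Points have exact 95% binomial intervals and the dashed line is the 67.0% over all called peaks; the zinc finger families are at 27.8% and the ribosomal protein genes at 92.3%.

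Peaks on the mitochondrial genome, which encodes core subunits of the respiratory chain, were higher in 22 of 23 cases, and the 1 lower peak was also the only protein-coding one on the minus strand. It lay in ND6 and was at -0.64 in the authors' deposited table, with input rising from 644, 604 and 589 FPKM to 1790, 1538 and 1644 FPKM. Peaks of COX1 reached 3.16 in the authors' deposited table, also with rising input. After centring 18 were higher and 5 lower.

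Over all genes, most called peaks were higher in MII as deposited, whether the message rose, fell or did not pass the test. Of the 11739 genes tested in the input with limma, 7140 were called (60.8%), 32.0% higher and 28.8% lower in MII. Of the 4985 among them with a row in the peak table, 3299 were called (66.2%), 1487 higher and 1812 lower. Called peaks were higher in MII in 69.7% of cases (67.7% to 71.7%) in genes whose input rose, in 66.9% (65.3% to 68.5%) where it fell and in 65% (63.1% to 66.8%) where it was not called. Centring brought the counts to 1092 higher and 939 lower, 1748 and 1738, and 1319 and 1274 in that order. Where input fell or was not called, the split was then near even. Spearman's correlation of the log2 change of the peak with that of the input was 0.01 over 8654 peaks and 0.0046 with 1 peak for each of 4985 genes, as a description across genes that are not replicates. Enrichments in the stage lists are relative to input, and how the deposited change was formed is not stated, so both axes may share the input libraries.

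The balance of rising and falling messages moved with scaling. Among called genes with listed peaks, 45.1% were higher as deposited, 36.9% after median scaling, 39.8% after quantile normalization and 35.7% with mitochondrial genes removed and the rest rescaled. The median input change over the table's genes was -0.05, -0.12, -0.09 and -0.13 in that order.

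Messages with peaks in both directions were the ones with the largest share falling. Among 726 such genes, 365 (50.3%) fell and 152 (20.9%) rose, with a median log2 change of -0.17. Among 2891 genes with all called peaks higher, 1013 (35.0%) fell and 929 (32.1%) rose, and among 1172 with all lower, 379 (32.3%) fell and 338 (28.8%) rose, with medians of -0.03 for each. These sets were defined from peak calls, and no test was made between them. A gene needs at least 2 called peaks to enter the first set, while 980 genes with all called peaks higher and 314 with all lower had that many. Genes with falling input also had more listed peaks, 3719 in 1812 genes, against 2170 in 1487 genes with rising input. The part of peak number in these shares was not tested. Their mean input levels differed too, with medians of 32.2, 29.8 and 15.8 FPKM in the same order.

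All 4 combinations of peak and input direction occurred, with named examples taken by the product of both changes. FARSB, a subunit of phenylalanyl-tRNA synthetase, rose in both, with a peak at 5.52 in the authors' deposited table and input from 14.1, 12.8 and 13.0 FPKM to 40.6, 35.7 and 34.9 FPKM (1.41 ± 0.08 SE, limma adjusted p = 8.4e-06). TRMT112, a cofactor of several RNA methyltransferases, did so with a 5′ UTR peak at 4.76 in the authors' deposited table and input from 59.2, 60.6 and 63.7 FPKM to 167, 173 and 178 FPKM (1.48 ± 0.04 SE, limma adjusted p = 7.8e-07). In both genes the stages were far apart. BLOC1S1, ACP1 and MRPL55 completed this group, BLOC1S1 being listed at 0, 9.30 and 0 FPKM in the GV libraries.

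Peaks rose while messages fell in PCNP, in the histone genes H2AC20 (peak at 4.72) and H2BC4 (5.29), in PTGS2 and in PSPC1, a paraspeckle protein whose 3 peaks were at 0.86, 0.995 and 4.00, all in the authors' deposited table. Input of H2AC20 was 307, 274 and 295 FPKM in GV and 101, 108 and 103 FPKM in MII (-1.48 ± 0.05 SE, limma adjusted p = 1.3e-06). Histone genes have near-identical copies, so which copy these reads came from is uncertain.

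The opposite, lower peaks on a rising message, was found in SPAG7, FASTKD2, the sterol reductase gene TM7SF2, the kinase gene TESK1 and RBM18. SPAG7 had the largest rise, from 1.66, 1.66 and 1.78 FPKM in GV to 23.8, 23.5 and 32.8 FPKM in MII (3.34 ± 0.14 SE, limma adjusted p = 2.5e-06), with a start codon peak at -1.62 in the authors' deposited table. TM7SF2 had a 3′ UTR peak at -3.14 in the authors' deposited table and input from 10.9, 8.99 and 8.17 FPKM to 32.1, 40.0 and 32.7 FPKM. Both fell in ZBTB21, in the RNA polymerase III factor gene BDP1, in ZFP14, in MANEA and in NOCT, which encodes nocturnin. The 3′ UTR peak of NOCT was at -2.94 in the authors' deposited table, and its input fell from 12.2, 11.6 and 13.1 FPKM to 6.45, 5.59 and 6.04 FPKM (-0.92 ± 0.09 SE, limma adjusted p = 0.0001).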

How the data were processed

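Peak tables and expression values of GV and MII bovine oocytes were used as deposited, and samples were grouped by their titles. The submitters' processing notes name HISAT2 2.0.4, StringTie 2.1.2, HOMER 4.10, edgeR 4.1 and fastp 0.19.4 without saying what each did. No source used here gives the peak caller, genome build, annotation release or the way libraries were combined. FPKM per gene and input library were computed by the authors, and no single immunoprecipitated library was analysed here. The log2 change and the log2 enrichments, the p-values and the Benjamini-Hochberg adjusted p-values of peaks are those the authors deposited. Depth per library is unknown, since FPKM carries no count. Of 16675 genes, 12910 to 12953 were above 0 FPKM in the GV input libraries and 14948 to 15393 in the MII input libraries. The part of this difference in the peak lists and peak changes was not tested.

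Peak starts count from 0 in the files (679 rows start 1 base before the gene start, 0 at it) and are printed counting from 1. Rows were joined to FPKM by gene identifier, 3 rows having no match and 25 a mean under 1 FPKM. Of the 8682 rows 318 lack a symbol. Input on the log2(FPKM + 1) scale, which understates changes of low genes, was fitted by limma 3.58.1 (R 4.3.3, eBayes with trend, 2-sided) for genes whose mean was 1 FPKM or more, with Benjamini-Hochberg adjustment over all genes tested at 0.05, and this fit was tested on simulated data. Shares have 95% Clopper-Pearson intervals (SciPy 1.17.1). Overlap with the stage lists needed 1 bp.

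Named peaks are the 10 highest and 10 lowest called, the 3 at each end of each class and list (a selection is given), the 12 genes with the largest difference between non-overlapping called peaks, the genes with the most called peaks and 5 genes for each combination of peak and input direction. The members and the 21 gene lists were chosen with earlier results of these data known. Alternatives were other thresholds, centring, spans, filters, pseudocounts and scalings, 1 peak per gene, a replicate block and each library left out. The replicate numbers did not pair the input libraries (correlations of deviations -0.05, -0.06 and 0.01). One named gene is not reported here. No genome sequence was used, so motifs were not examined.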

Additional observations from a re-analysis of the deposited data

How the results depend on the processing

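Of 94 alternative values, 74 stayed within the tolerance set (1.5 times for a count, the 95% interval for a share, a fixed difference for the correlation) and 20 moved. The correlation of peak and input change could not move at an adjusted p under 0.01, since it uses all listed peaks of tested genes. Nor could it move under median scaling, which leaves the ranks of the input changes as they were. None of the 94 changed direction, but centring of the peak classes and most gene lists was not among them. Majorities of the main classes, strands, quintiles of gene length and gene lists that centring turned are given above. Centred counts over all peaks, 4173 higher and 3962 lower, stayed within the tolerance although the share higher fell from 67.0% to 51.2%. With peaks of at most 1000 bp, which replaced a limit to 1 exon block since the table gives no blocks, 1879 were called higher and 1478 lower. Both counts are as deposited, and centring turned their exonic class, the largest, to 846 higher and 1064 lower. Of these higher peaks 12.9% were 5′ UTR, 8.94% start codon, 3.78% stop codon and 19.5% 3′ UTR, and of the lower ones 2.77%, 3.32%, 12.4% and 19.5%. At an adjusted p under 0.01, 3′ UTR peaks made up 6.34% of higher and stop codon peaks 15.2% of lower calls. With 1 peak per gene there were 3280 higher and 1531 lower, 68.6% higher in genes with falling input, and 78.2% lower among zinc finger peaks. Over all called zinc finger peaks 81.0% were lower after centring. Genes with peaks in both directions were 383 where both changed by at least 1. The share with the higher peak nearer the 5′ end was 59.1% for spans of at most 1000 bp and 72.3% for changes of at least 1, both chosen after seeing the data, as were the zinc finger alternatives. Leaving out 1 input library gave 1343 to 1366 genes of the table with higher and 1621 to 1700 with lower input. With the replicate number as a block, 1417 were higher and 1722 lower, and the pairing check gave no pairing.

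The table lists p-values under 0.05 only and has 1 value per peak, so neither the share of all peaks that changed nor the error of a change can be had. Strand, span and input level moved with direction, and stage scaling is not stated.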
